A study of Cucumis melo with 12 samples.

Results

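The 48 most abundant leaf transcripts of melon (Cucumis melo) are described here across 2 varieties and 2 times at 4 °C. They are the genes whose mean over 12 leaf libraries was at least 1000 FPKM, a unit that corrects the fragments of a gene for its length and for the library's total. This rule was met by 48 of the 21691 genes in the deposited table. The variety 162 is labelled as tolerant of chilling and the variety 13-5A as sensitive to it. The 4 groups had 3 libraries each, namely 162 at 12 h, 162 at 0 h, 13-5A at 12 h and 13-5A at 0 h of exposure to 4 °C. The labels attach the 4 °C treatment to the 0 h groups as well, and they give neither the temperature before sampling nor the age of the plants. Nor is it stated whether replicates are separate plants or repeats of one extract, so the p-values cover the spread between the libraries at hand, which may be technical. No group stayed unchilled until 12 h, so chilling and the passing of 12 h cannot be told apart.

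Leaf messenger RNA is very unevenly divided among genes. In green leaves the most abundant nuclear transcripts of plants commonly encode proteins of photosynthesis, such as the small subunit of Rubisco, the enzyme that fixes carbon dioxide, and the proteins that bind chlorophyll a and b in the light-harvesting antennae. Abundant mRNAs are also known for proteins that detoxify reactive oxygen, bind metals or maintain protein synthesis. The identifiers in the deposited table carry no names and 0 of them matched the RefSeq gene table for melon, so no role is given to any of the 48 genes. For the same reason the leaf markers listed for this work could not be looked up, and the labelled tissue was not checked against them.

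Read totals, recovered from the FPKM values, ran from 41299369 to 45355323 per library. Among the 48 genes the lowest count in any library was 4470 reads, for which counting alone gives an error of 1.5%, and the highest was 4581030 reads. Counting error was thus small beside the spread between replicates. Replicate libraries of 162 differed in their level over the abundant genes as a whole. In replicate 3 of 162 at 12 h the median of the 48 genes lay 0.23 below the group mean on the log2 scale, and in replicate 1 of 162 at 0 h it lay 0.17 above it. Over all tested genes the same libraries lay 0.01 above and 0.04 below. Replicate 3 was the lowest of its group for 32 of the 48 genes and replicate 1 the highest of its group for 28, against 38.3% and 32.3% of tested genes. Replicate 1 of 162 at 12 h was the highest for 28 (median 0.14 above) and replicate 2 of 162 at 0 h the lowest for 26 (0.135 below). Counts that use replicate 3 of 162 at 12 h or replicate 1 of 162 at 0 h are also given without each of them.

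The 48 genes held 20.1% ± 2.21 of all FPKM in 162 at 12 h and 20.9% ± 1.03 in 162 at 0 h (SD, n = 3 each). In 13-5A they held 25.5% ± 1.77 at 12 h and 30.2% ± 0.596 at 0 h. Library by library the share was 21.2%, 21.5% and 17.5% in 162 at 12 h, and 22.1%, 20.4% and 20.2% in 162 at 0 h. It was 25.3%, 23.9% and 27.4% in 13-5A at 12 h, and 30.4%, 30.7% and 29.5% in 13-5A at 0 h. The 6 libraries of 162 all lay below the 6 of 13-5A. Within 13-5A the 12 h libraries all lay below the 0 h libraries, whereas within 162 the times overlapped. The genes were chosen by their level in the same libraries, so these shares are a description and carry no test. Counted as reads instead of FPKM, the shares were 15.6% ± 2.08 in 162 at 12 h, 17.0% ± 1.29 in 162 at 0 h, 20.4% ± 1.87 in 13-5A at 12 h and 25.1% ± 1.21 in 13-5A at 0 h.

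**Figure D1:**
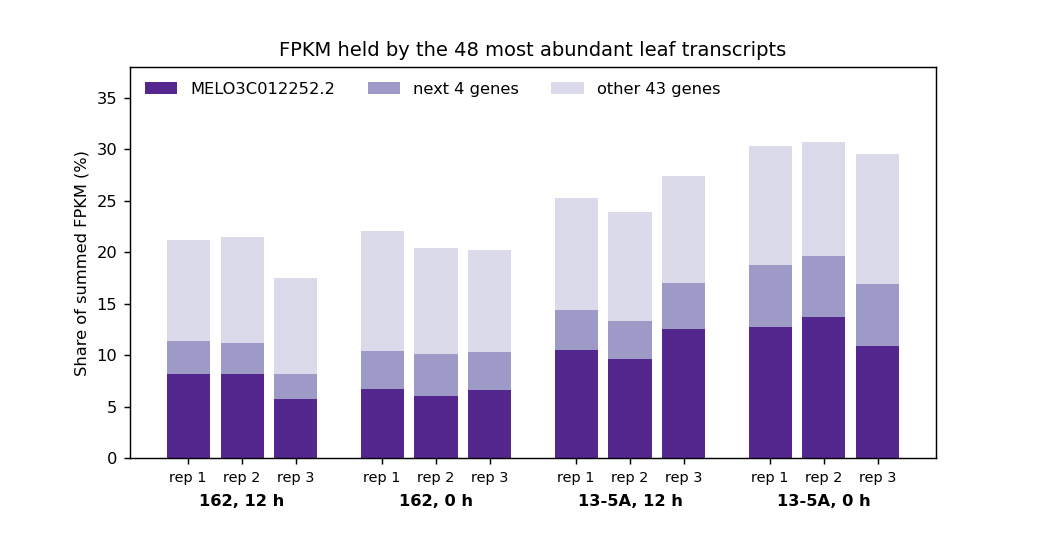
Share of summed FPKM (%) held by the 48 genes in each of the 12 libraries, stacked as MELO3C012252.2, the next 4 genes and the other 43. Every 13-5A bar is taller than every 162 bar, from 23.9% upward against 22.1% at most, and the segment of MELO3C012252.2 alone reaches 13.7%.

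A single gene, MELO3C012252.2, supplied much of this share. It had 54602, 52717 and 36865 FPKM in 162 at 12 h, against 47938, 39370 and 43642 FPKM in 162 at 0 h. In 13-5A it had 66665, 61670 and 82212 FPKM at 12 h, against 83269, 90845 and 70693 FPKM at 0 h. The times overlapped in both varieties, and all 6 libraries of 162 lay below all 6 of 13-5A. Its log2 difference between 12 h and 0 h was 0.12 (SE 0.30) in 162 and -0.22 (SE 0.30) in 13-5A, with adjusted p = 0.76 and 0.57 by limma with Benjamini-Hochberg adjustment over 15592 genes. Between varieties the difference was -0.56 (SE 0.30, adjusted p = 0.207) at 12 h and -0.90 (SE 0.30, adjusted p = 0.0299) at 0 h by limma, both short of 2-fold. The 0 h difference missed 0.05 in 9 of 19 alternatives, among them a pseudocount of 0.1 (adjusted p = 0.0721), no filter on low genes (0.849), and the omission of any 1 of the 6 libraries compared (0.0512 to 0.0991). It was past 2-fold under median-ratio scaling (-1.21, adjusted p = 0.0128) and under scaling on the genes outside the 48 (-1.11, adjusted p = 0.00836). Its mean over the 12 libraries, 60874 FPKM, was 5.21 times that of the next gene. It held 7.41% ± 1.38 of FPKM in 162 at 12 h and 6.51% ± 0.372 in 162 at 0 h, and 10.9% ± 1.5 in 13-5A at 12 h and 12.5% ± 1.45 in 13-5A at 0 h (SD, n = 3 each).

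The varieties stood apart in share without this gene as well. With it taken out of both the 48 and the total, the other 47 held 13.7% ± 1.1 in 162 at 12 h, against 16.4% ± 0.605 in 13-5A at 12 h. At 0 h they held 15.4% ± 0.969 in 162, against 20.2% ± 0.637 in 13-5A. Neither pair of groups overlapped, since the 162 libraries reached at most 14.5% at 12 h and 16.5% at 0 h, and the 13-5A libraries were at 15.8% and 19.6% or more. In 162 the 12 h libraries, at 14.1%, 14.5% and 12.4%, now also lay below the 0 h libraries, at 16.5%, 15.3% and 14.5%, the closest values being 14.46% and 14.54%.

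The next genes in rank were far lower. MELO3C023879.2, ranked 2, had 7852, 7330 and 5339 FPKM in 162 at 12 h, against 10974, 11031 and 10689 at 0 h, and in 13-5A 11284, 10289 and 13245 at 12 h, against 17154, 18013 and 16879 at 0 h. It was lower at 12 h in every library of both varieties, and lower in 162 at both times. The fit gave log2 differences of -0.69 in 162 and -0.59 in 13-5A for time, and of -0.77 at 12 h and -0.67 at 0 h for variety, each with an SE of 0.23. Adjusted p by limma was 0.0243, 0.0481, 0.0297 and 0.0324 in that order, so all passed 0.05 and none was 2-fold. These values were close to the threshold, and of 19 alternatives 6, 12, 7 and 9 missed it, no filter on low genes among them each time (adjusted p = 0.513, 0.597, 0.543 and 0.546). MELO3C023354.2, ranked 3, averaged 3723 ± 588 FPKM in 162 at 12 h and 5261 ± 158 in 162 at 0 h, and 5098 ± 731 in 13-5A at 12 h and 9406 ± 159 in 13-5A at 0 h (SD, n = 3 each). Its fall over 12 h in 13-5A passed (log2 difference -0.89, SE 0.20, adjusted p = 0.00315 by limma, 0.165 with no filter on low genes), and the difference in 162 did not (-0.51, SE 0.20, adjusted p = 0.0539). A difference between these effects was not shown (interaction 0.38, SE 0.29, adjusted p = 0.465 by limma).

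MELO3C016513.2, ranked 4, averaged 4417 ± 356 FPKM in 162 at 12 h, 6314 ± 974 in 162 at 0 h, 5471 ± 267 in 13-5A at 12 h and 6658 ± 1694 in 13-5A at 0 h (SD, n = 3 each), and passed in none of the 5 comparisons. MELO3C009958.2, ranked 5, had 4458, 4145 and 2126 FPKM in 162 at 12 h, against 3432, 2330 and 2617 at 0 h. In 13-5A it had 2906, 3359 and 4082 FPKM at 12 h, against 5585, 6688 and 4363 at 0 h. The times overlapped in 162 and did not in 13-5A, where the difference still missed the threshold (log2 difference -0.68, SE 0.30, adjusted p = 0.0811 by limma). The 5 leading genes together held 8.21% to 19.6% of FPKM over the 12 libraries, and the 48 genes 17.5% to 30.7%.

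**Figure D2:**
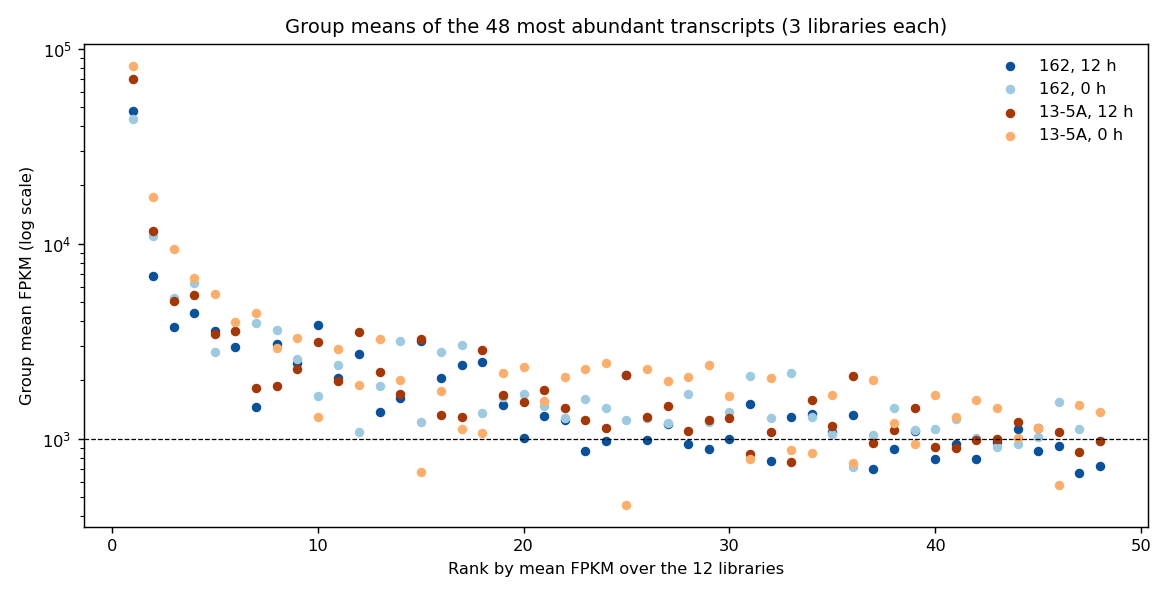
Mean FPKM of each of the 48 genes in each group (3 libraries each, log axis) against rank by the mean over 12 libraries, with the 1000 FPKM threshold dashed. Levels drop steeply after the first rank, from 60874 to 11673 FPKM in the overall mean, and many lower ranks have a group under the threshold.

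The rule reads the mean over all libraries, so a gene can enter through a group in which it is high. All 4 group means were at least 1000 FPKM for 23 of the 48 genes, and 25 had at least 1 group mean under it. Of these, 14 reached it in 3 groups, 9 in 2 groups and 2 in 1 group. In all 12 libraries 12 genes were at or above 1000 FPKM. A further 30 genes outside the 48 had a group mean of at least 1000 FPKM. Just inside the threshold stood MELO3C012971.2 with an overall mean of 1029 FPKM and MELO3C006539.2 with 1013, and just outside it MELO3C032881.2 with 993 and MELO3C022113.2 with 937. MELO3C006539.2 passed 1000 only in 13-5A at 0 h, where it averaged 1379 ± 56.3 FPKM, and MELO3C032881.2 averaged 1272 ± 684 FPKM in 162 at 0 h (SD, n = 3 each). Counts over the 48 genes below therefore describe them and support no statement beyond them.

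The abundant genes were short in the lengths used for the deposited values. Their median length was 1082 bases, with a range of 222 to 1989, against 1303 bases for the 1012 genes with a mean of 100 to under 1000 FPKM and 1645 bases for all tested genes. FPKM divide by length, so a short gene needs fewer reads to reach the threshold. Of the 48, 4 were under 600 bases: MELO3C023786.2 at 222, MELO3C027448.2 at 237, MELO3C006670.2 at 507 and MELO3C003132.2 at 566. By reads in place of FPKM, 33 of the 48 would still be among the 48 highest genes. MELO3C027448.2 would move from rank 8 to 136 and MELO3C023786.2 from rank 9 to 173, while the first 3 genes keep their ranks. Within groups the SD of log2(FPKM + 1) had a median of 0.25 for the 48 genes, against 0.23 for all tested genes.

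Among the 48 genes the group with the highest mean was most often 13-5A at 0 h, and the group with the lowest mean was most often 162 at 12 h. These are separate counts and do not always concern the same genes. The highest group mean was that of 162 at 12 h for 2 genes, 162 at 0 h for 8, 13-5A at 12 h for 9 and 13-5A at 0 h for 29, which is 60.4% of the 48 against 19.8% of tested genes. The lowest was that of 162 at 12 h for 26 genes, or 54.2% against 23.4% of tested genes. Without replicate 1 of 162 at 0 h these counts were 28 for the highest in 13-5A at 0 h and 22 for the lowest in 162 at 12 h, and without replicate 3 of 162 at 12 h they were 29 and 24. Of the genes with a mean of 100 to under 1000 FPKM, 27.8% were highest in 13-5A at 0 h and 26.5% lowest in 162 at 12 h. Levels are relative to each library's total, and in leaves, which mix cell types, fewer cells of a type and less RNA per cell cannot be told apart.

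**Figure D3:**
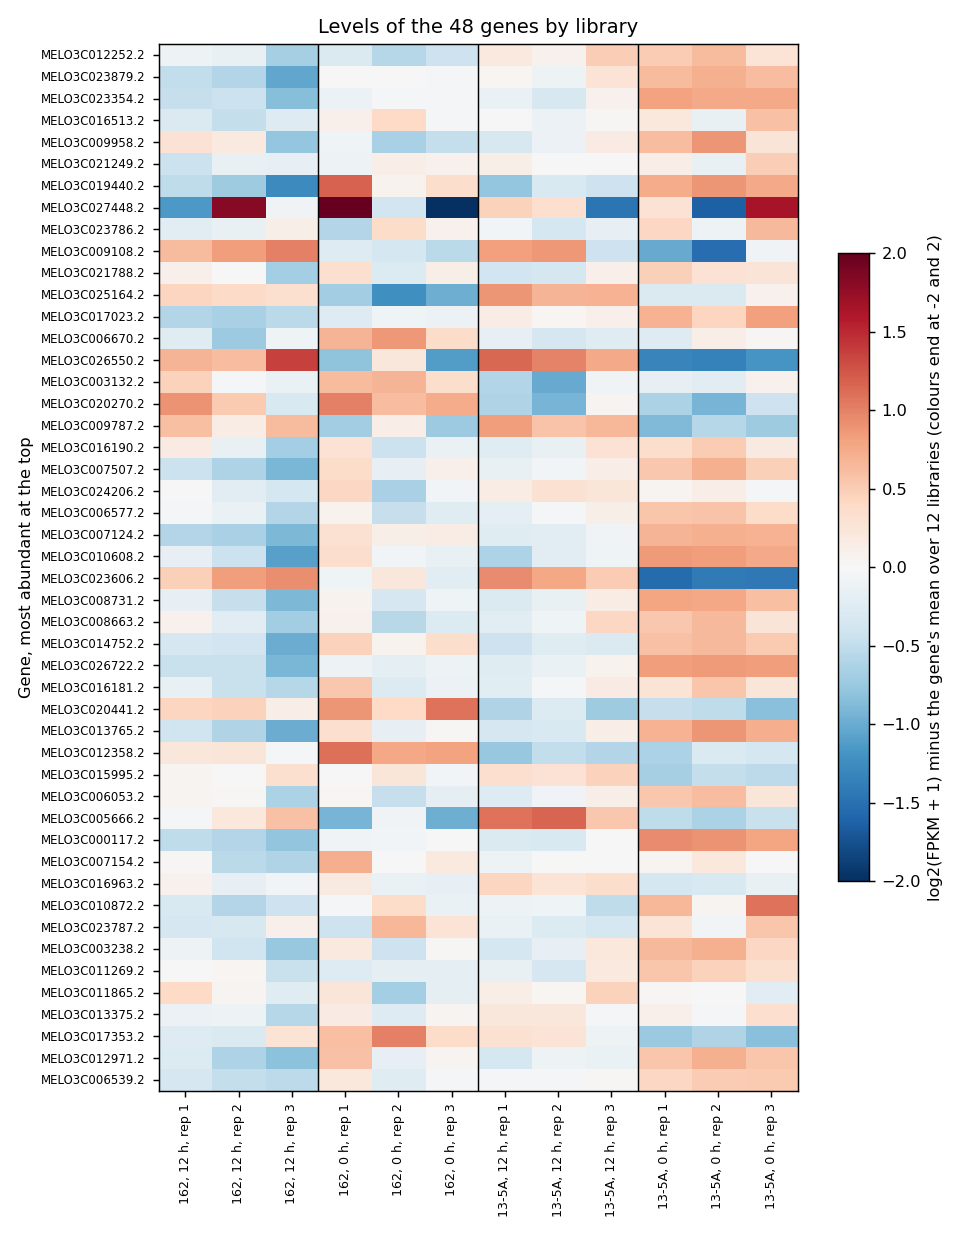
Level of each of the 48 genes (rows, most abundant at the top) in each library (columns), as log2(FPKM + 1) minus the gene's own mean over the 12 libraries. Red marks values above and blue below that mean. Most rows are red in 13-5A at 0 h, and 162 at 12 h is blue for most, deepest in its replicate 3, while MELO3C027448.2 varies widely within every group.

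Over 12 h at 4 °C in 162, 3 of the 48 genes rose and 1 fell by at least 2-fold with an adjusted p under 0.05 by limma, where 9.24% of all tested genes rose and 10.6% fell (19.8% in either direction). MELO3C026550.2 had 2656, 2536 and 4270 FPKM in 162 at 12 h, against 941, 1935 and 763 FPKM at 0 h. It rose in 162 without overlap (log2 difference 1.46, SE 0.32, adjusted p = 0.00254 by limma). MELO3C025164.2 had 2802, 2737 and 2616 FPKM at 12 h, against 1292, 893 and 1063 FPKM at 0 h, and its replicates lay close together at 12 h (1.34, SE 0.19, adjusted p = 0.000154 by limma). The other gene that rose was MELO3C009108.2, at 3328, 3860 and 4326 FPKM at 12 h, against 1794, 1679 and 1487 at 0 h (1.21, SE 0.38, adjusted p = 0.0206 by limma). This call ended without replicate 3 of 162 at 0 h (adjusted p = 0.0629), replicate 2 of 162 at 12 h (0.0513) or replicate 3 of 162 at 12 h (0.0561).

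The gene that fell was MELO3C019440.2, ranked 7. It had 1787, 1553 and 1050 FPKM in 162 at 12 h, against 5781, 2664 and 3259 FPKM in 162 at 0 h. The 12 h libraries all lay below the 0 h libraries, of which replicate 1 was far above the others. The log2 difference was -1.37 (SE 0.29, adjusted p = 0.00229 by limma), and it was -1.04 without that replicate. Calls in 162 numbered 3 higher and 1 lower without replicate 1 of 162 at 0 h, 5 and 1 without replicate 2, and 2 and 2 without replicate 3. Without replicate 1 of 162 at 12 h they numbered 4 higher and 2 lower, without replicate 2 they were 3 and 1, and without replicate 3 they were 2 and 2. Scaling by median ratios gave 5 higher and 1 lower. Shares of tested genes called in these fits are not given.

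Smaller differences in 162 were mostly negative. Of the 48 log2 differences 35 were negative, 72.9% against 57.1% of tested genes. Negative were 30 without replicate 1 of 162 at 0 h and 33 without replicate 3 of 162 at 12 h. With no minimum fold, 15 genes had an adjusted p under 0.05 and were lower at 12 h and 6 were higher, where 29.6% and 19.9% of tested genes were, so the 31.2% lower among the 48 was near the background. Without replicate 1 of 162 at 0 h 9 were lower and 5 higher, and without replicate 3 of 162 at 12 h 10 were lower and 4 higher. With no filter on low genes 10 were lower and 5 higher. The 29.6% and 19.9% of tested genes are those with all libraries and the filter, and the shares in these other fits are not given. In 19 genes the 12 h libraries of 162 lay below the 0 h libraries without overlap and in 6 above, where 31.5% and 22.1% of tested genes did. These counts were 20 and 6 without replicate 1 of 162 at 0 h, where 37.3% and 23.7% of tested genes did, and 19 and 9 without replicate 3 of 162 at 12 h, where 36.6% and 25.4% did. The median log2 difference of the 48 genes was -0.38, with the middle 50% between -0.58 and 0.03, against -0.12 for all tested genes, and it was -0.25 without replicate 3 of 162 at 12 h. Median-ratio scaling moved the median of all genes to -0.02 and that of the 48 to -0.26.

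In 13-5A, 5 of the 48 genes rose and 3 fell by at least 2-fold over 12 h, where 12.6% of tested genes rose and 9.06% fell (21.7% in either direction). MELO3C026550.2 had 3661, 3274 and 2781 FPKM in 13-5A at 12 h, against 658, 648 and 726 FPKM at 0 h, which was the largest rise among the 48 genes in this variety (log2 difference 2.25, SE 0.32, adjusted p = 0.000114 by limma). MELO3C023606.2 had 2431, 2161 and 1792 FPKM at 12 h, against 434, 472 and 468 FPKM at 0 h (2.20, SE 0.19, adjusted p = 3.78e-06 by limma). Both were thus among the scarcer of the 48 genes at 0 h in 13-5A, and at 12 h every library had at least 1792 FPKM of each. MELO3C005666.2 averaged 2108 ± 466 FPKM at 12 h and 754 ± 50.1 FPKM at 0 h (1.46, SE 0.27), and MELO3C009787.2 averaged 2849 ± 260 and 1070 ± 115 FPKM (1.41, SE 0.25; SD, n = 3 each). MELO3C009108.2 was at 3811, 3947 and 1619 FPKM at 12 h, against 1071, 748 and 2052 FPKM at 0 h, so its libraries overlapped although it was called (1.30, SE 0.38, adjusted p = 0.0143 by limma). That call ended without replicate 2 at 0 h, or replicate 1 or 2 at 12 h (adjusted p = 0.068, 0.0622 and 0.0616 by limma).

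The 3 genes that fell in 13-5A did so by little more than 2-fold. MELO3C019440.2 had 1486, 2050 and 1903 FPKM at 12 h, against 4263, 4704 and 4292 FPKM at 0 h (log2 difference -1.30, SE 0.29, adjusted p = 0.00297 by limma). MELO3C010608.2 had 904, 1190 and 1298 FPKM at 12 h, against 2502, 2476 and 2343 FPKM at 0 h (-1.12, SE 0.25, adjusted p = 0.00241 by limma), and without replicate 1 of 13-5A at 12 h its difference of -0.97 was no longer 2-fold. MELO3C000117.2 had 885, 882 and 1084 FPKM at 12 h, against 2078, 2023 and 1870 FPKM at 0 h (-1.07, SE 0.16, adjusted p = 0.000157 by limma). In each of the 3 the groups did not overlap. Under median-ratio scaling, and under scaling on the genes outside the 48, 5 genes rose and 5 fell. Without replicate 3 of 13-5A at 12 h 6 rose and 5 fell. How many tested genes were called in these fits is not given.

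Here too the small differences were mostly negative. Of the 48 log2 differences 34 were negative, 70.8% against 45.6% of tested genes, and the median was -0.45, against 0.07 for all tested genes. The median was 0.52 below that of all tested genes. In 162 it was 0.25 below, and 0.13 below without replicate 3 of 162 at 12 h or 0.16 without replicate 1 of 162 at 0 h. With no minimum fold 18 genes were lower at an adjusted p under 0.05 and 9 were higher, where 21.9% and 28% of tested genes were. The 18 became 11 without replicate 1 of 13-5A at 0 h and 11 without replicate 2 of 13-5A at 12 h, and 10 with no filter on low genes. No share of tested genes is given for these fits, so the drop cannot be compared with that of all genes. In 23 genes the 12 h libraries lay below the 0 h libraries without overlap and in 10 above, where 27.8% and 34.8% of tested genes did.

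The varieties, which share no library in these comparisons, had the same sign in 37 of the 48 genes, or 77.1%, against 78.9% of tested genes, so this share was near the background. Of the 37, 29 were negative and 8 positive, which is 60.4% and 16.7% of the 48, against 40.8% and 38.1% of tested genes. Same-signed genes numbered 36 without replicate 1 of 162 at 0 h and 33 without replicate 3 of 162 at 12 h, with 26 negative in each case. Called in both were MELO3C026550.2 and MELO3C009108.2, which rose, and MELO3C019440.2, which fell. In 14 of the 48 genes the 12 h libraries lay below the 0 h libraries without overlap in both varieties, and in 5 they lay above, where 19.9% and 18.4% of tested genes did. Taken over the 48 genes, the correlation of the effect in 162 with that in 13-5A was r = 0.765, against 0.824 over the tested genes. These values describe genes of the same libraries, which are not independent of each other.

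**Figure D4:**
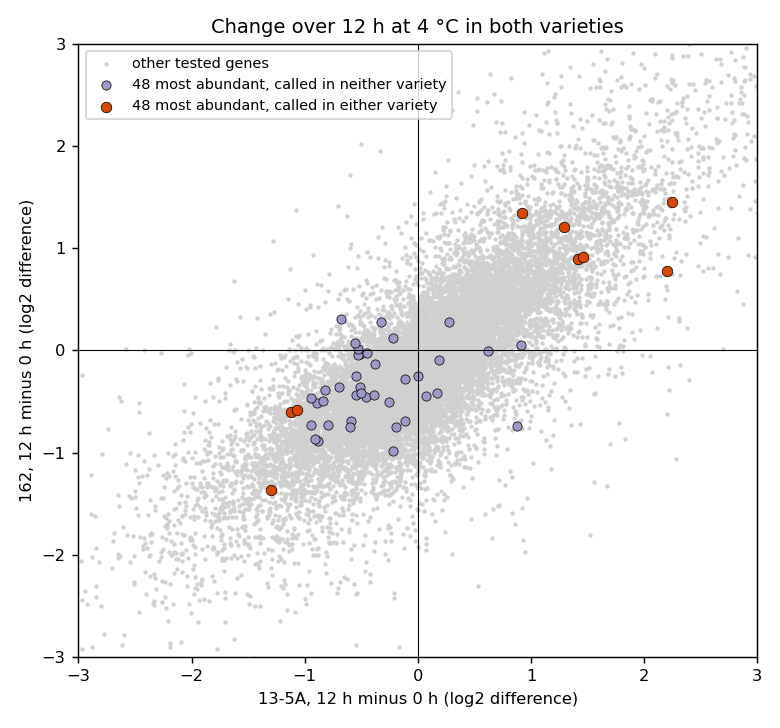
Log2 difference between 12 h and 0 h in 162 (y axis) against that in 13-5A (x axis) for the 48 genes and the other tested genes (grey), on log2(FPKM + 1). Orange genes were called in either variety. The 48 genes lie mainly in the lower left, with 29 negative in both varieties, and 237 grey points fall outside the axes, which end at 3.

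By the interaction test of limma, 2 of the 48 genes responded differently to 12 h at 4 °C in 162 than in 13-5A, both negative, where 3.41% of tested genes were called, 1.04% positive and 2.37% negative. MELO3C017353.2 moved in opposite directions. It had 803, 789 and 1164 FPKM in 162 at 12 h, against 1451, 1925 and 1241 at 0 h, and in 13-5A 1183, 1158 and 892 FPKM at 12 h, against 576, 632 and 537 at 0 h. Neither pair of groups overlapped. Its difference was -0.74 (SE 0.22, adjusted p = 0.014, and 0.0575 without replicate 2 of 162 at 12 h) in 162 and 0.88 (SE 0.22, adjusted p = 0.00522) in 13-5A, and the interaction was -1.62 (SE 0.31, adjusted p = 0.0166), all by limma. MELO3C023606.2, with 1755, 2242 and 2408 FPKM in 162 at 12 h, against 1189, 1481 and 1072 FPKM at 0 h, was higher at 12 h in both varieties, by 0.78 (SE 0.19) in 162 and by 2.20 in 13-5A (interaction -1.43, SE 0.28, adjusted p = 0.0173 by limma). Both interactions missed the threshold without replicate 1 of 13-5A at 0 h and without replicate 1 of 13-5A at 12 h, with adjusted p from 0.0509 to 0.064, while their sizes stayed between -1.33 and -1.62 there. At an unadjusted p under 0.05, 9 of the 48 genes had an interaction, 3 positive and 6 negative, where 3541 of the 15592 tested genes had one. Limma voom on the recovered reads called 0 positive and 2 negative, and without replicate 3 of 162 at 12 h limma called 1 positive and 2 negative.

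At 12 h none of the 48 genes differed 2-fold between 162 and 13-5A, and the differences ran from -0.77 to 0.86 on the log2 scale. Limma called 0 of 48, where 7.9% of tested genes were called (4.97% higher and 2.92% lower), and limma voom also called 0. An unadjusted p under 0.05 was found for 15 of the 48 genes and for 5555 of the 15592 tested genes. Of the 48 differences 38 were negative, 79.2% against 42.7% of tested genes, with a median of -0.27 against 0.07, and 34 were negative without replicate 3 of 162 at 12 h. With no minimum fold 4 genes were lower in 162 at an adjusted p under 0.05, namely MELO3C023879.2, MELO3C017023.2, MELO3C007507.2 and MELO3C007124.2, and MELO3C020441.2 and MELO3C012358.2 were higher, where 8.54% and 13.6% of tested genes were. The count of 4 was 0 with no filter on low genes, 0 without replicate 1 of 13-5A at 12 h, 2 without replicate 2 and 1 without replicate 3 of that group, 1 without replicate 2 or 3 of 162 at 12 h, and 1 without replicate 1 of 13-5A at 0 h. Without replicate 3 of 162 at 12 h or replicate 3 of 13-5A at 12 h, 1 gene was called higher by the 2-fold rule. For these fits too the shares of tested genes passing or called are not given. In 16 genes the 162 libraries lay below the 13-5A libraries without overlap at 12 h and in 2 above, where 15.9% and 25.3% of tested genes did. Without replicate 3 of 162 at 12 h these counts were 20 and 5, where 22.5% and 33.1% of tested genes did.

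At 0 h, 5 of the 48 genes were at least 2-fold higher in 162 and 0 were lower, where 11.7% of tested genes were higher and 3.08% lower (14.8% in either direction). Without replicate 1 of 162 at 0 h, 5 were higher and 1 was lower. MELO3C020270.2 had 3506, 2675 and 2918 FPKM in 162, against 1128, 922 and 1315 FPKM in 13-5A (a difference of 1.44 on the log2 scale, SE 0.32, adjusted p = 0.00375 by limma). MELO3C023606.2 had 1189, 1481 and 1072 FPKM in 162, against 434, 472 and 468 FPKM in 13-5A (1.43, SE 0.19, adjusted p = 0.000173 by limma). MELO3C020441.2 averaged 2088 ± 483 FPKM in 162 and 787 ± 105 FPKM in 13-5A (1.39, SE 0.22), MELO3C017353.2 averaged 1539 ± 351 and 582 ± 47.4 FPKM (1.38, SE 0.22), and MELO3C012358.2 averaged 2171 ± 284 and 872 ± 108 FPKM (1.31, SE 0.18; SD, n = 3 each). None of these 5 genes overlapped between varieties at 0 h. At 12 h MELO3C023606.2 had almost the same mean in both, 2135 ± 339 FPKM in 162 and 2128 ± 321 FPKM in 13-5A, whereas MELO3C020441.2 averaged 1506 ± 177 and 831 ± 137 FPKM and MELO3C012358.2 1288 ± 139 and 760 ± 70.9 FPKM (SD, n = 3 each).

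Below 2-fold the 48 genes leaned the other way at 0 h. The differences were negative in 35, 72.9% against 32.3% of tested genes, and the most negative was -0.99, and 33 were negative without replicate 1 of 162 at 0 h. With no minimum fold 18 genes were lower in 162 at an adjusted p under 0.05 and 7 were higher, where 10.3% and 31.5% of tested genes were. Without replicate 1 of 162 at 0 h 19 were lower and 6 higher. The 18 became 8, 8, 7 and 8 without replicate 2 or 3 of 162 at 0 h or replicate 1 or 2 of 13-5A at 0 h, and 6 with no filter on low genes. The shares of tested genes passing in these fits are not given, so the drop cannot be compared with that of all genes. In 20 genes the 162 libraries lay below the 13-5A libraries without overlap and in 9 above, where 14.2% and 38.2% of tested genes did, and without replicate 1 of 162 at 0 h 26 lay below and 9 above, where 16.6% and 47.8% did. The median of the 48 genes was -0.30, against 0.24 for all tested genes, and it was -0.52 without replicate 1 of 162 at 0 h. Median-ratio scaling moved the median of all genes to -0.03 and that of the 48 to -0.62. With that scaling 4 of the 48 genes were called higher and 12 lower, and with scaling on the genes outside the 48, 5 were higher and 8 lower. The split of calls at 0 h thus rests on the scaling. The shares of tested genes called at 0 h are those without rescaling, and the shares under these scalings are not given.

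**Figure D5:**
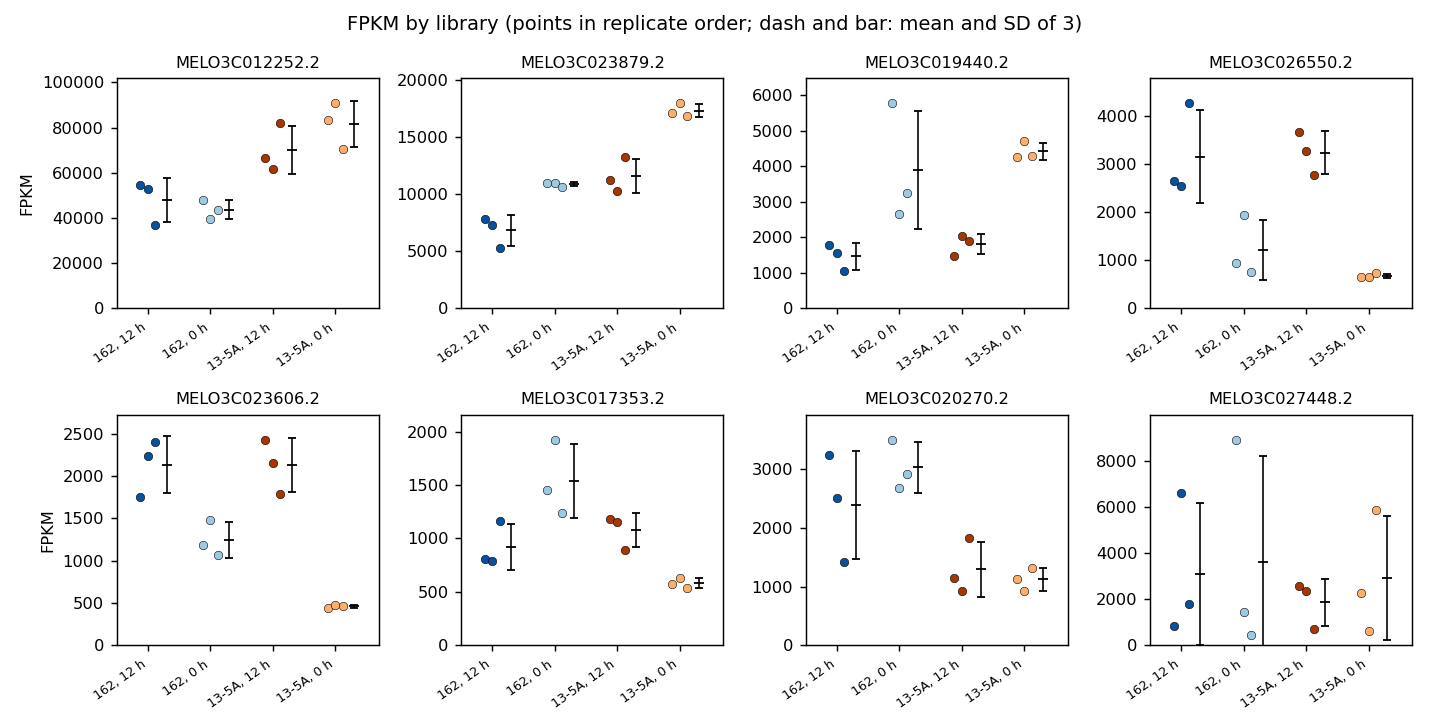
FPKM by library for 8 of the 48 genes in the 4 groups, with the mean and SD of 3 libraries beside the points (bars of MELO3C027448.2 are cut at 0). MELO3C012252.2 and MELO3C023879.2 are lower in 162, MELO3C026550.2 and MELO3C023606.2 are higher at 12 h in both varieties, MELO3C017353.2 crosses between varieties, and MELO3C027448.2 ranges from 428 to 8921 FPKM within a group.

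The genes differed widely in how far replicates agreed. MELO3C007124.2 had the smallest spread within groups, with an SD of 0.11 on the log2 scale. It stood at 943, 903 and 758 FPKM in 162 at 12 h, against 1733, 1522 and 1567 FPKM in 162 at 0 h. In 13-5A it stood at 1190, 1204 and 1344 FPKM at 12 h, against 2270, 2311 and 2280 FPKM at 0 h. No 2 of the 4 groups overlapped, and its difference over time was nearly the same in 162 (-0.89, adjusted p = 0.00068) and in 13-5A (-0.88, adjusted p = 0.000677) by limma. MELO3C027448.2 had the largest spread, an SD of 1.66. It was at 838, 6590 and 1784 FPKM in 162 at 12 h, against 8921, 1436 and 428 FPKM in 162 at 0 h, and in 13-5A at 2556, 2348 and 680 FPKM at 12 h, against 2274, 598 and 5871 FPKM at 0 h. Every pair of groups overlapped. The SE was 1.11 on each log2 difference between groups and 1.575 on the interaction, so a 2-fold change of this gene was not detectable.

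The genes with the narrowest range over the 4 groups were MELO3C021249.2 and MELO3C013375.2, both with 0.41 between the extreme group means on the log2 scale. MELO3C021249.2 averaged 2942 ± 306 FPKM in 162 at 12 h, 3570 ± 312 in 162 at 0 h, 3585 ± 169 in 13-5A at 12 h and 3946 ± 890 in 13-5A at 0 h (SD, n = 3 each). MELO3C013375.2 averaged 863 ± 151, 1022 ± 151, 1133 ± 110 and 1133 ± 150 FPKM in the same groups. Neither passed in any of the 5 comparisons, which does not show that their levels were equal. In 25 of the 48 genes the highest group mean was at least 2 times the lowest. The share of tested genes with such a range was not counted, so this is not shown to be particular to the 48.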

How the data were processed

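Total RNA of melon leaves was made into libraries with a VAHTS Universal V6 kit and sequenced as paired-end reads on an Illumina NovaSeq instrument, per the labels' protocols. The authors deposited FPKM of 21691 genes. How they aligned and counted the reads, and on which build, is not given in the sources used here. Sample descriptions identified each column, and 0 unassigned sample columns remained.

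FPKM were transformed to log2(FPKM + 1), so fold changes are on that scale, which understates the change of low genes. Genes averaging 1 FPKM or more (15592, all 48 among them) were fitted in R 4.3.3 by limma 3.58.1 with its trend option. One model held all 12 libraries and the 4 groups, leaving 8 residual degrees of freedom. Each adjusted p is Benjamini-Hochberg over all tested genes, separately for each of 5 comparisons: time (12 h over 0 h) in 162 and in 13-5A, the interaction (effect in 162 minus effect in 13-5A), and the varieties at 12 h and at 0 h (162 over 13-5A). A call needs an adjusted p under 0.05 and a 2-fold difference. Shares of tested genes called, or passing with no fold minimum, are from the model above and are not given for the alternatives. Whole reads, library totals and gene lengths were solved for jointly from the FPKM. Each length was the smallest at which every library had whole reads within 0.001. That 100% of values in the tested genes came out whole thus follows from the method and is no check of it. It is not known if 1 unit is a single read or a pair. On these reads limma voom called 4 of the 48 genes in 162, 8 in 13-5A, 2 for the interaction, 5 at 0 h and 0 at 12 h. Both steps were also run on simulated data, whose outcome is not given here and is not used as support. Python 3.11.15 was used elsewhere (pandas 2.3.3, numpy 2.4.6, matplotlib 3.10.9).

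The genes, lists and tests were chosen with earlier results of these data known. Genes are named by rule: the 5 most abundant, up to 2 called in each direction and comparison with the largest differences, 2 on each side of the threshold, the narrowest and widest, and the 3 most like the first. Other genes named, such as the remaining called ones and those under 600 bases, were chosen after their values were seen. Alternatives were a pseudocount of 0.1, no filter, 2 rescalings, a replicate block, no fold minimum, thresholds of 500 and 2000 FPKM, voom and each library left out. Equal FPKM sums, the removal of 2 single genes, and signs and overlaps without 2 libraries were added after seeing the data.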

Additional observations from a re-analysis of the deposited data

Results flagged for a closer look

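Of the 48 genes, 2 had effects of 12 h at 4 °C that differed between the varieties by the interaction test of limma. This is 4.17% of them, near the 3.41% of tested genes that were called. MELO3C017353.2 had an effect in 162 minus that in 13-5A of -1.62 on the log2 scale (adjusted p = 0.0166), with levels of 919 ± 213 FPKM in 162 at 12 h, 1539 ± 351 in 162 at 0 h, 1078 ± 161 in 13-5A at 12 h and 582 ± 47.4 in 13-5A at 0 h (SD, n = 3 each). MELO3C023606.2 had -1.43 (adjusted p = 0.0173), with 2135 ± 339 FPKM in 162 at 12 h, 1247 ± 211 in 162 at 0 h, 2128 ± 321 in 13-5A at 12 h and 458 ± 20.7 in 13-5A at 0 h. Both calls held under every rescaling, pseudocount, filter and voom, and both ended without replicate 1 of 13-5A at 0 h (adjusted p = 0.0567 and 0.064) and without replicate 1 of 13-5A at 12 h (0.0509 and 0.0538) by limma. Groups of 3 libraries are too small for a check of single libraries as outliers.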

How the results depend on the processing

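Of the 19 called gene differences 6 lost the call under at least 1 alternative and 13 under none, and 0 turned sign. Leaving out a library of another comparison changes only the estimated spread. Genes that passed only with no fold minimum are mostly given as counts, with alternatives that lowered those counts beside them. With no fold minimum the counts of called genes became 21 in 162, 27 in 13-5A, 25 at 0 h and 6 at 12 h, by construction. With the threshold at 500 FPKM and the 2-fold rule they were 20, 29, 17 and 8 of 116 genes. The shares of tested genes called in the same comparisons were 19.8%, 21.7%, 14.8% and 7.9%, so larger counts there come with more genes. At 2000 FPKM they were 3 in 13-5A, 0 for the interaction and 0 at 0 h, of 15 genes. Median-ratio scaling gave 16 calls at 0 h, and scaling on the genes outside the 48 gave 13. Shares of tested genes called under these scalings are not given. These scalings moved the median log2 difference at 0 h to -0.62 and -0.51, and median-ratio scaling moved that of the interaction to 0.22. Shares of FPKM in 162 at 12 h, 162 at 0 h, 13-5A at 12 h and 13-5A at 0 h were 15.6%, 17.0%, 20.4% and 25.1% as reads, 26.7%, 28.1%, 31.9% and 38.2% at 500 FPKM, 14.1%, 14.0%, 18.9% and 22.5% at 2000 FPKM, and 13.7%, 15.4%, 16.4% and 20.2% without MELO3C012252.2. With no filter on low genes MELO3C009108.2 lost its call in 162 (adjusted p = 0.0583), and MELO3C012358.2 lost its own at 0 h under median-ratio scaling (log2 difference 1.00, just under the fold minimum). Apart from the threshold and fold changes, the cause was not tested.

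With each library left out in turn, called genes numbered from 4 to 6 in 162, from 6 to 11 in 13-5A, 0 to 3 for the interaction, 5 to 6 at 0 h and 0 to 1 at 12 h. Medians ran from -0.45 to -0.25 in 162, -0.52 to -0.40 in 13-5A, -0.077 to 0.157 for the interaction, and for variety -0.52 to -0.27 (0 h) and -0.38 to -0.23 (12 h). The 0 h median of -0.52 and the interaction median of 0.16 came without replicate 1 of 162 at 0 h. The interaction median, 0.02 with all libraries, was negative in 5 of these. The labels give no pairing by replicate number. Deviations of 18 same-numbered pairs correlated at -0.31 to 0.30 and 2 exceeded 0.1. Whether same-numbered libraries share a plant or a batch was not tested. The replicate block left all 5 counts of calls as they were, at 4, 8, 2, 5 and 0.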

Other observations

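Only 1 pair of the 48 genes had consecutive identifiers, MELO3C023786.2 and MELO3C023787.2, which were picked out after their values were seen. MELO3C023786.2 was 1.96 to 2.75 times as high as MELO3C023787.2 in FPKM over the 12 libraries. Their deviations from the group means went together, at r = 0.958 over 12 libraries in 4 groups, a description with no test. Of all 1128 pairs among the 48 genes 202, or 17.9%, exceeded 0.8, and the highest reached 0.99, so the value is not particular to this pair. MELO3C023786.2 had 1706, 3303 and 2722 FPKM in 162 at 0 h, and MELO3C023787.2 had 802, 1685 and 1283 FPKM there, so replicate 1 was the lowest for both. Whether the genes share reads was not tested.

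Levels of the leading gene, MELO3C012252.2, were followed most closely by genes far below the threshold. The highest Pearson correlations of log2(FPKM + 1) over the 12 libraries, which fall into 4 groups, were those of MELO3C004574.2 at 0.976, MELO3C023491.2 at 0.961 and MELO3C026955.2 at 0.956. Their means over the 12 libraries were 85.7, 29.1 and 371 FPKM. Within groups the correlations were 0.974, 0.909 and 0.937. These 3 genes are the highest among 15592 and were selected for this likeness, so the values are a description.

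In 162 the leading gene took 7.41% ± 1.38 of FPKM at 12 h and 6.51% ± 0.372 at 0 h, while the other 47 took 12.7% ± 0.839 at 12 h and 14.4% ± 0.89 at 0 h (SD, n = 3 each). Fewer genes made up 50% of FPKM in 13-5A at 0 h, 313 ± 27.6, than in the other groups, at 652 ± 67.6 in 162 at 12 h, 575 ± 114 in 162 at 0 h and 530 ± 58.3 in 13-5A at 12 h. The number of genes at 1000 FPKM or more was 42.3 ± 1.53 in 162 at 12 h, 52.3 ± 11.8 in 162 at 0 h, 43.3 ± 2.08 in 13-5A at 12 h and 57.0 ± 1 in 13-5A at 0 h.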
